A study of Mus musculus with 8 samples.

Results

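The endothelin system of the mouse heart was read through 7 genes. They encode the peptide ligands (Edn1, Edn2 and Edn3), the receptors (Ednra and Ednrb) and the converting enzymes (Ece1 and Ece2). They were found by Ensembl identifier among the 55487 identifiers of the count table. The group was selected on the Edn3 values of these same libraries, which were lower after isoproterenol, so the isoproterenol values of these 7 genes are a description with no test. Tests on them are given only between the genotypes and for the interaction of genotype with treatment. Of the 7 genes, 6 passed the filter on low counts and entered the fit; Edn2 had no read in any library.

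Endothelins are short peptides cut from longer precursors, first by furin-like proteases and then by endothelin converting enzymes, which release the active form. Both receptors are G protein-coupled. Ednra on smooth muscle and cardiomyocytes raises intracellular calcium through phospholipase C and constricts vessels, while Ednrb on endothelium triggers nitric oxide release and clears endothelin from blood. In the heart, endothelin-1 is known as a vasoconstrictor and a growth stimulus of cardiomyocytes. Endothelin-3 acting on Ednrb is best known for guiding neural crest cells that form enteric neurons and melanocytes.

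Total heart RNA was sequenced from 4 groups of 2 libraries each: Set7KO mice given isoproterenol, Set7KO mice given saline, WT mice given isoproterenol and WT mice given saline. Set7KO mice lack Set7 (gene symbol Setd7), a lysine methyltransferase, in the whole body and came from crosses of heterozygous parents. Isoproterenol, a beta-adrenergic agonist, was injected under the skin at 60 mg/kg for 14 consecutive days, and the saline groups received saline over the same period. The sources used here give no age or sex. Nor do the labels say whether the 2 libraries of a group come from different animals. The p-values below therefore reflect differences between libraries, which may be partly technical.

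The mature peptides are shown first because Edn1 and Edn3, whose values are set side by side below, encode closely related peptides. Each line gives the 63 coding bases of the 21-residue mature peptide in GRCm38 (GENCODE M21 transcripts), plus strand, in exon 2 of the gene. Capitals mark the 4 cysteine codons, whose cysteines form the disulphide bridges common to all endothelins.
Edn3, chr2:174761749-174761811: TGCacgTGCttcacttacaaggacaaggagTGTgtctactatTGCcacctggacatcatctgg
Edn1, chr13:42303649-42303711: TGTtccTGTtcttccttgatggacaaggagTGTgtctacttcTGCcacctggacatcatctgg
Edn2, chr4:120161951-120162013: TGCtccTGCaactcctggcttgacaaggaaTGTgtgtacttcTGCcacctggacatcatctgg
Edn3 matched Edn1 at 50 of the 63 bases and encoded the same residue at 15 of the 21 codons. Edn3 matched Edn2 at 48 bases and again at 15 residues. Edn1 and Edn2 were the closest pair, with 53 bases and 18 residues in common. The 3 stretches end in the same run from the last cysteine codon onwards, the tail of the peptide that engages the receptors.

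The libraries held 27847069 to 51705705 counted reads. Setd7 stood at 3.79 to 5.70 CPM (the read count scaled to a common library size) in the 4 Set7KO libraries and at 43.0 to 72.6 CPM in the 4 WT libraries, matching the genotype labels. Cardiomyocyte markers, with Myh6 among them, summed to 72086 to 107906 CPM in every library, and the lung and airway marker list was at 0 in all 8. Libraries differed in how their counts depended on the base composition of genes. The median log2 deviation of GC-rich genes minus that of GC-poor genes was 0.20 and 0.67 in the Set7KO isoproterenol libraries, 0.37 and -0.96 in the Set7KO saline libraries, -1.13 and -0.82 in the WT isoproterenol libraries, and 0.59 and 0.90 in the WT saline libraries. This GC trend therefore splits the 2 Set7KO saline libraries and separates the WT isoproterenol libraries from the WT saline libraries, and its values are set beside the receptor results. In whole-heart RNA, fewer cells of a type and less RNA per cell cannot be told apart.

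Among the ligands, Edn3 was low but detected in all libraries and was several times lower after isoproterenol in both genotypes. Edn3 (chromosome 2, 174760619 to 174784042, plus strand) read 0.271 and 0.366 CPM in the Set7KO isoproterenol libraries, against 2.21 and 2.11 CPM in the Set7KO saline libraries. In WT hearts it read 0.386 and 0.548 CPM after isoproterenol, against 1.64 and 2.15 CPM after saline. All 4 isoproterenol libraries lay below all 4 saline libraries, as they did for 2.01% of the genes tested. The counts behind these levels were small, at 9, 10, 17 and 19 reads after isoproterenol and 68, 106, 44 and 65 reads after saline. Exact Poisson 95% intervals, which cover counting error only, reached at most 0.856 CPM in an isoproterenol library and began at 1.19 CPM or higher in a saline library.

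Averaged over the genotypes, Edn3 was 5.25-fold lower after isoproterenol, a log2 difference of -2.39 ± 0.28 (SE, 8 libraries). The difference was -2.76 ± 0.41 in Set7KO hearts and -2.03 ± 0.38 in WT hearts on the same log2 scale. Edn3 was 1 of 7 genes called lower in the averaged contrast, 0.0397% of the 17636 genes tested; because that contrast chose the group, nothing is read from the count. When any 1 of the 4 isoproterenol libraries or either WT saline library was left out, Edn3 was no longer called, although its difference stayed between -2.52 and -2.27. An additive model of genotype and treatment did not call it either. Within either genotype alone, edgeR's fit called 0% of all genes, Edn3 included. DESeq2 called 100 genes in Set7KO hearts (0.545% of those it gave an adjusted p) and 2553 in WT hearts (17%). Edn3 was among them in both and Ednrb in WT hearts. The edgeR fit with no filter on low counts called 31 genes in Set7KO hearts (0.107%) and 1512 in WT hearts (5.2%), again with Edn3 in both. All these Edn3 calls rest on the values that chose the group, so nothing is read from them.

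Edn1, the endothelin made chiefly by endothelium, showed no such pattern. Edn1 (chromosome 13, 42301476 to 42307990, plus strand) read 2.50 and 1.54 CPM in the Set7KO isoproterenol libraries, against 2.08 and 3.39 CPM in the Set7KO saline libraries. WT hearts held 2.13 and 1.96 CPM after isoproterenol, against 1.53 and 2.25 CPM after saline. The isoproterenol and saline values overlapped in each genotype, with the highest reading in Set7KO saline replicate 2, and the averaged log2 difference was -0.16 ± 0.28. Between 41 and 170 reads stood behind each value.

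**Figure D1:**
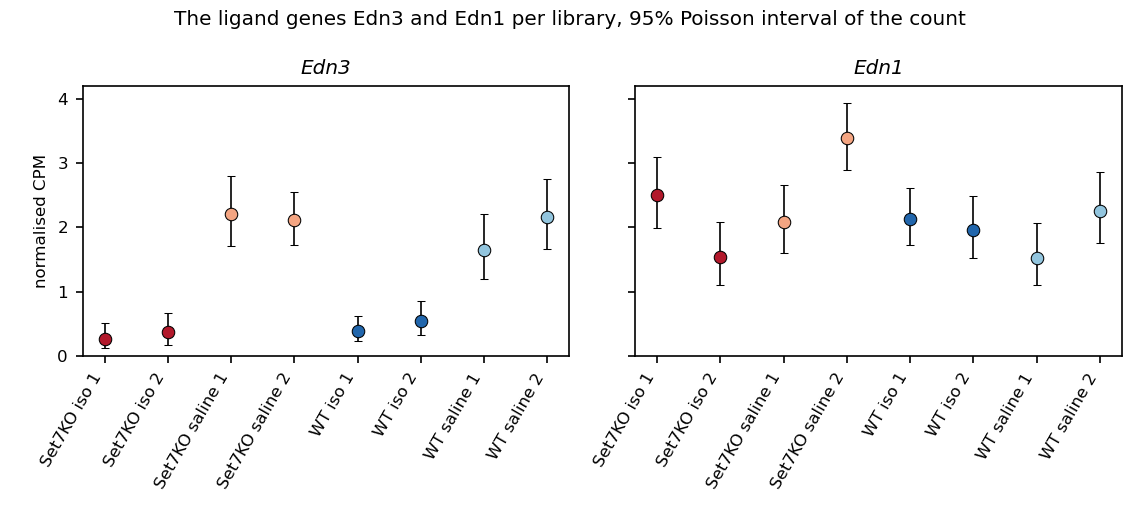
Normalised CPM of Edn3 (left) and Edn1 (right) in each of the 8 libraries, with bars for the exact Poisson 95% interval of the count; iso, isoproterenol. The 4 isoproterenol libraries lie at or below 0.548 CPM of Edn3 and the 4 saline libraries at or above 1.64 CPM, while the 2 treatments overlap for Edn1.

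The ratio of the ligands within a library does not depend on library size. Per kilobase of exon, Edn3 amounted to 0.0592 and 0.128 of Edn1 in the Set7KO isoproterenol libraries, against 0.552 and 0.325 in the Set7KO saline libraries. In WT hearts the ratio was 0.0963 and 0.148 after isoproterenol, against 0.558 and 0.497 after saline. The ratio was thus lower in all 4 isoproterenol libraries than in any saline library, and Edn1 exceeded Edn3 in all 8 libraries. Because the lower Edn3 values chose the group, the separation of the ratio by treatment is a description and adds no support.

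Edn2 (chromosome 4, 120161206 to 120167360, plus strand), a ligand known in mice from gut and ovary, had 0 reads in every library. A count of 0 allows up to 0.0598 to 0.112 CPM at these depths, taking 3 reads as the limit. Edn2 can therefore be called undetectable at this depth, and no treatment or genotype difference can be given.

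Levels of different genes were compared per kilobase of exon. Ece1 stood highest, at 29.6 ± 6.11 CPM per kilobase (SD over the 8 libraries, all groups together), followed by Ednra at 4.61 ± 1.88, Ednrb at 1.46 ± 0.578, Edn1 at 1.02 ± 0.277, Edn3 at 0.295 ± 0.218 and Ece2 at 0.207 ± 0.224. Ece1 exceeded Ednra, Ednra exceeded Ednrb and Edn1 exceeded Edn3 in 8 of 8 libraries each. Ednrb exceeded Edn1 in 6 of 8, and Edn3 exceeded Ece2 in 5 of 8. The ranges of neighbours were separate only for Ece1 over Ednra and for Edn1 over Edn3, and the ranges of the other neighbours overlapped. The order of the Edn3 and Ece2 means differed by treatment. After isoproterenol Edn3 averaged 0.0955 ± 0.0280 and Ece2 0.311 ± 0.275 CPM per kilobase (SD, n = 4 libraries each). After saline the means were 0.494 ± 0.0636 for Edn3 and 0.103 ± 0.111 for Ece2. In WT isoproterenol replicate 1, however, Edn3 (0.0938) exceeded Ece2 (0.0577). The lower Edn3 chose the group, and Ece2 shares exons with another gene, as given below, so its counts are uncertain.

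**Figure D2:**
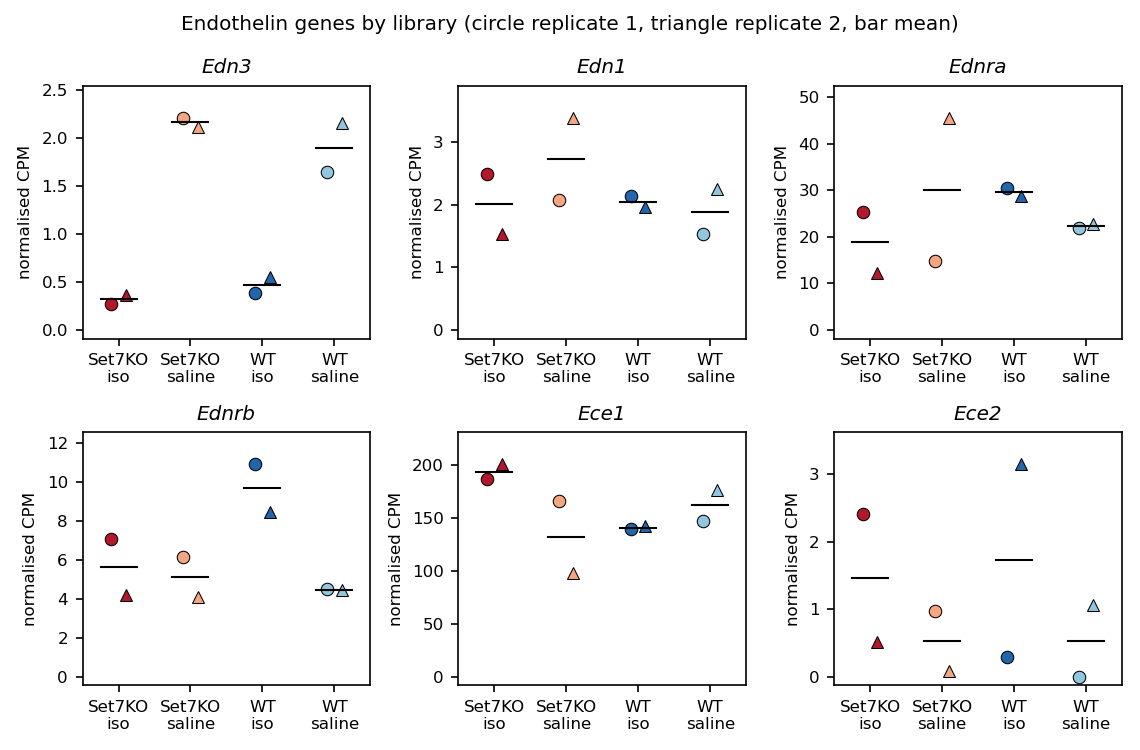
Normalised CPM of the 6 detected endothelin genes by group; each point is a library (circle, replicate 1; triangle, replicate 2) and the horizontal bar is the mean of the 2 libraries. Edn3 is low in both isoproterenol groups, Ednrb is highest in the WT isoproterenol group, and the Set7KO saline libraries lie far apart for Ednra and Ece1.

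Of the receptors, Ednra was the more abundant in every library, and its spread was widest in the Set7KO hearts. Ednra (chromosome 8, 77663031 to 77724464, minus strand) read 25.3 and 12.3 CPM in the Set7KO isoproterenol libraries, against 14.8 and 45.5 CPM in the Set7KO saline libraries. WT hearts held 30.5 and 28.8 CPM after isoproterenol, against 21.8 and 22.7 CPM after saline. The Set7KO treatments overlapped, whereas both WT isoproterenol libraries lay above both WT saline libraries. The log2 difference, isoproterenol minus saline, was -0.68 ± 0.50 in Set7KO hearts and 0.41 ± 0.50 in WT hearts. Without Set7KO saline replicate 2 the Set7KO difference turned to 0.36. That library also stood apart in its cell type markers. Its neutrophil markers summed to 104 CPM, against 3.47 to 13.1 CPM in the other 7 libraries, and its fibroblast markers to 1753 CPM, against 2927 to 5706 CPM in the others. Gsn made up most of that fibroblast sum, at 1241 CPM, against 2028 to 4924 CPM in the others. Dpt, Col1a1, Col1a2 and Tcf21 were also lowest in that library. Its Dcn (256 CPM), Lum (9.91 CPM) and Pdgfra (24.8 CPM) lay within the range of the others. The part of these markers in its Ednra and Ece1 values was not tested.

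Ednrb showed its highest readings in WT hearts after isoproterenol. Ednrb (chromosome 14, 103814625 to 103844402, minus strand) read 7.08 and 4.21 CPM in the Set7KO isoproterenol libraries, against 6.14 and 4.11 CPM in the Set7KO saline libraries. In WT hearts it read 10.9 and 8.46 CPM after isoproterenol, against 4.48 and 4.44 CPM after saline. The WT libraries did not overlap between treatments and the Set7KO libraries did. The log2 difference was 0.14 ± 0.34 in Set7KO hearts and 1.12 ± 0.34 in WT hearts.

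Such separation within 1 genotype was common among all genes. In WT hearts the 2 isoproterenol libraries lay entirely above or below the 2 saline libraries for 72.7% of the genes tested, and in Set7KO hearts for 34.7%. Ednrb, with 44.1% GC, is the most AT-rich of the 7 genes, and its values did not stand beside the GC trend in the same way throughout. The WT isoproterenol libraries, with trends of -1.13 and -0.82, held more Ednrb than the WT saline libraries. In the Set7KO isoproterenol pair, too, the library with the lower trend, 0.20, held the higher Ednrb value, 7.08 CPM. Its partner, with a trend of 0.67, held 4.21 CPM. In the Set7KO saline pair, by contrast, the library with a trend of -0.96 held the lower Ednrb value, 4.11 CPM, and that with 0.37 the higher, 6.14 CPM. When GC content and exonic length were entered as offsets for each library, the Ednrb difference in WT hearts became 0.05 ± 0.40, and that in Set7KO hearts 0.53 ± 0.40. The Ednra difference in WT hearts became -0.04 ± 0.41. Edn3, at 51.8% GC, differed by -2.79 ± 0.37 in Set7KO hearts and -1.92 ± 0.35 in WT hearts with these offsets.

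**Figure D3:**
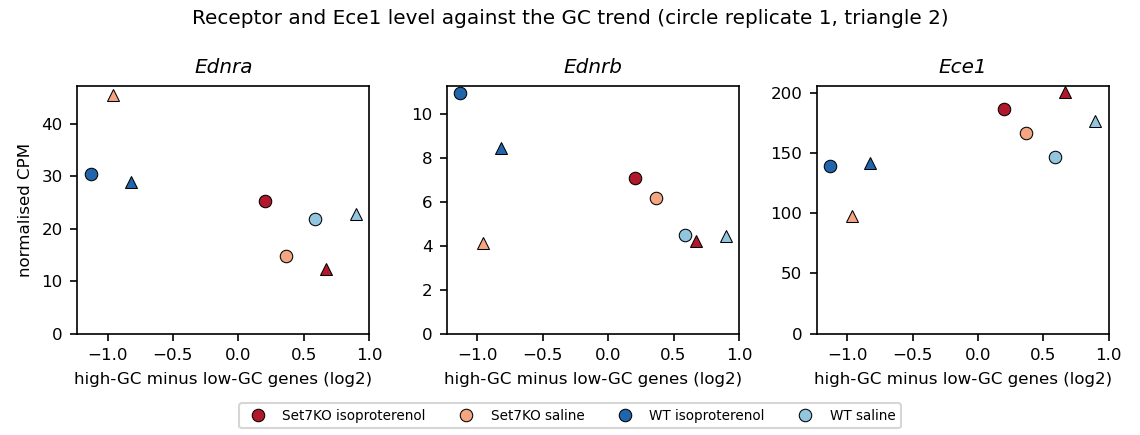
Normalised CPM of Ednra, Ednrb and Ece1 (vertical axes) against the GC trend of each library (horizontal axis, median log2 deviation of GC-rich minus GC-poor genes); circles are replicate 1 and triangles replicate 2. Ednra is highest, at 45.5 CPM, and Ece1 lowest, at 98.1 CPM, in Set7KO saline replicate 2, whose GC trend is -0.96.

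Within a library, the receptors kept no fixed balance. Per kilobase, Ednra was 2.78 and 2.28 times Ednrb in the Set7KO isoproterenol libraries, against 1.87 and 8.61 times in the Set7KO saline libraries. The WT values were 2.17 and 2.65 times after isoproterenol, against 3.78 and 3.98 times after saline. The log2 ratio averaged 1.67 ± 0.987 in Set7KO libraries and 1.61 ± 0.417 in WT libraries (SD, n = 4 each). The difference of 0.06 did not exceed the spread between libraries (exact permutation test, two-sided, p = 0.914; the smallest p this design allows is 0.0286).

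The converting enzyme Ece1 was the most abundant of the 7 genes in every library. Ece1 (chromosome 4, 137862237 to 137965229, plus strand) read 186 and 201 CPM in the Set7KO isoproterenol libraries, against 166 and 98.1 CPM in the Set7KO saline libraries. WT hearts held 140 and 142 CPM after isoproterenol, against 147 and 176.6 CPM after saline. Isoproterenol libraries lay above saline libraries in Set7KO hearts and below them in WT hearts. Treatments were separate in either direction for 34.7% of all genes tested in Set7KO hearts and 72.7% in WT hearts. The log2 difference was 0.55 ± 0.27 in Set7KO hearts and -0.20 ± 0.27 in WT hearts. With the GC and length offsets it was 0.43 ± 0.18 and, in WT hearts, 0.22 ± 0.18, so that the direction in WT hearts turned.

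Ece2, a related enzyme best known from neural tissue, gave unstable counts. Ece2 (chromosome 16, 20629828 to 20646485, plus strand) had 80 and 14 reads in the Set7KO isoproterenol libraries, against 30 and 4 reads in the Set7KO saline libraries. WT hearts had 13 and 109 reads after isoproterenol, against 0 and 32 reads after saline. The annotated gene Gm49333 shares 2937 exonic bases with Ece2 on the same strand, so reads there cannot be assigned to 1 of the genes. Gm49333 had 0 and 75 reads in the Set7KO isoproterenol libraries and 75 and 60 in the Set7KO saline libraries. It had 126 and 0 reads in the WT isoproterenol libraries and 70 and 0 in the WT saline libraries. The 3 libraries with no Gm49333 read were those with the highest Ece2 counts (80, 109 and 32), and the library with no Ece2 read had 70 Gm49333 reads.

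Summed over both genes, the locus read 2.41 and 3.26 CPM in the Set7KO isoproterenol libraries, against 3.41 and 1.28 CPM in the Set7KO saline libraries. In WT hearts the sum was 3.15 and 3.15 CPM after isoproterenol, against 2.61 and 1.06 CPM after saline. The libraries were far closer on the sum than on Ece2 alone, and any value of Ece2 alone is uncertain. The log2 ratio of Ece1 to Ece2 per kilobase averaged 8.03 ± 1.64 in Set7KO libraries and 8.60 ± 3.17 in WT libraries (SD, n = 4 each; exact permutation test, two-sided, p = 0.83). Against the summed locus it averaged 5.96 ± 0.315 in Set7KO libraries and 5.98 ± 0.899 in WT libraries (p = 1 by the same exact test).

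**Figure D4:**
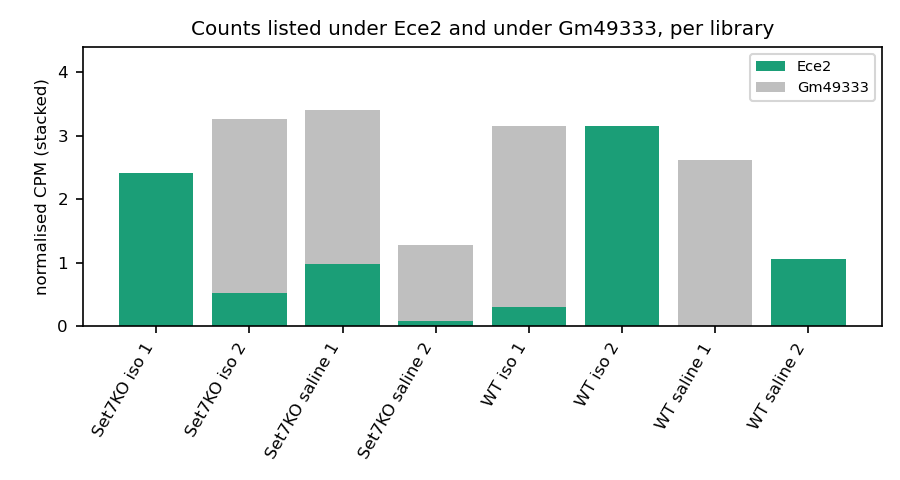
Normalised CPM of Ece2 and of Gm49333, which shares exons with it, in each of the 8 libraries as stacked bars from 0; iso, isoproterenol. The bars hold Ece2 alone in 3 libraries, Gm49333 alone in 1 and both in 4, and their sums run from 1.06 to 3.41 CPM.

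Between Set7KO and WT hearts, none of the 6 tested genes passed the threshold of adjusted p = 0.05 in edgeR's quasi-likelihood test with Benjamini-Hochberg adjustment over all genes tested. Averaged over treatments, Set7KO minus WT log2 differences were 0.26 ± 0.28 for Edn1, -0.18 ± 0.27 for Edn3, -0.11 ± 0.35 for Ednra, -0.29 ± 0.24 for Ednrb, 0.08 ± 0.19 for Ece1 and -0.17 ± 1.09 for Ece2, with an adjusted p of 0.9999 for each. The count was 0 of 6 at an unadjusted p under 0.05 too (1.56% of all genes), and 0 of 6 passed with limma-voom or DESeq2. Of all 17636 genes, 0.00567% (1 gene) passed. For Edn3 the 95% interval ran from -0.81 to 0.45 on the log2 scale and for Ece1 from -0.35 to 0.52. For Ece2 it ran from -2.66 to 2.32, which leaves its size undetermined.

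After isoproterenol, Set7KO libraries lay below WT libraries for Edn3 (0.271 and 0.366 CPM, against 0.386 and 0.548 CPM), Ednra and Ednrb, and above them for Ece1. Set7KO and WT libraries were separate in this way for 68.2% of all genes after isoproterenol. The log2 differences were -0.55 ± 0.43 for Edn3 (adjusted p = 0.440), -0.65 ± 0.50 for Ednra (adjusted p = 0.436), -0.78 ± 0.34 for Ednrb (adjusted p = 0.252) and 0.46 ± 0.27 for Ece1 (adjusted p = 0.330), by edgeR's quasi-likelihood test with Benjamini-Hochberg adjustment. Edn1 differed by -0.02 ± 0.39. At an unadjusted p under 0.05 the count was 0 of 6 by edgeR (19.9% of all genes), 1 of 6 by limma-voom and 0 of 6 by DESeq2, and none of the 3 tools called any of the 6 after adjustment, where edgeR called 0.00567% of all genes. With GC and length offsets the Ednrb difference was 0.08.

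After saline the Set7KO and WT libraries overlapped for all 6 genes, and were separate for 38% of all genes. The log2 differences, Set7KO minus WT, were 0.53 ± 0.39 for Edn1 (adjusted p = 0.584), 0.18 ± 0.35 for Edn3 (adjusted p = 0.828), 0.44 ± 0.50 for Ednra (adjusted p = 0.709), 0.20 ± 0.34 for Ednrb (adjusted p = 0.811) and -0.29 ± 0.27 for Ece1 (adjusted p = 0.648), by edgeR's quasi-likelihood test with Benjamini-Hochberg adjustment. At an unadjusted p under 0.05 the count was 0 of 6 by edgeR (10.3% of all genes), as it was with limma-voom and DESeq2. None of the 3 tools called any of the 6 after adjustment, where edgeR again called 0.00567% of all genes. Removing Set7KO saline replicate 2 turned the Ednra difference to -0.57 and that of Ece1 to 0.06.

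Whether the isoproterenol response depended on Set7 was tested as an interaction, the Set7KO response minus the WT response. None of the 6 genes passed by edgeR's quasi-likelihood test with Benjamini-Hochberg adjustment, by limma-voom or by DESeq2, and 0 of 6 had an unadjusted p under 0.05. The interaction was -0.73 ± 0.55 for Edn3 (adjusted p = 0.373), with a 95% interval from -2.0 to 0.53. It was -1.09 ± 0.71 for Ednra (adjusted p = 0.304), -0.97 ± 0.48 for Ednrb (adjusted p = 0.202), 0.75 ± 0.38 for Ece1 (adjusted p = 0.209) and -0.55 ± 0.56 for Edn1 (adjusted p = 0.505). Across all genes edgeR called 0%, with 5400 (30.6%) at an unadjusted p under 0.05, limma-voom called 0 and DESeq2 called 2089, 13.4% of those it gave an adjusted p.

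The interaction values of the receptors and of Ece1 changed when a library was left out and when GC content was entered. Without Set7KO saline replicate 1, whose partner has a GC trend of -0.96, edgeR's quasi-likelihood test called Ednra (-1.68 ± 0.48, adjusted p = 0.0335) and Ece1 (1.18 ± 0.31, adjusted p = 0.0264). That same fit called 5778 genes, 31.6% of those tested, so the 2 calls stand near the share of all genes. With GC and length offsets the interaction was 0.49 for Ednrb, 0.53 for Edn1, -0.45 for Ednra and 0.21 for Ece1. That of Edn3 was -0.87 ± 0.50 with the offsets.

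**Figure D5:**
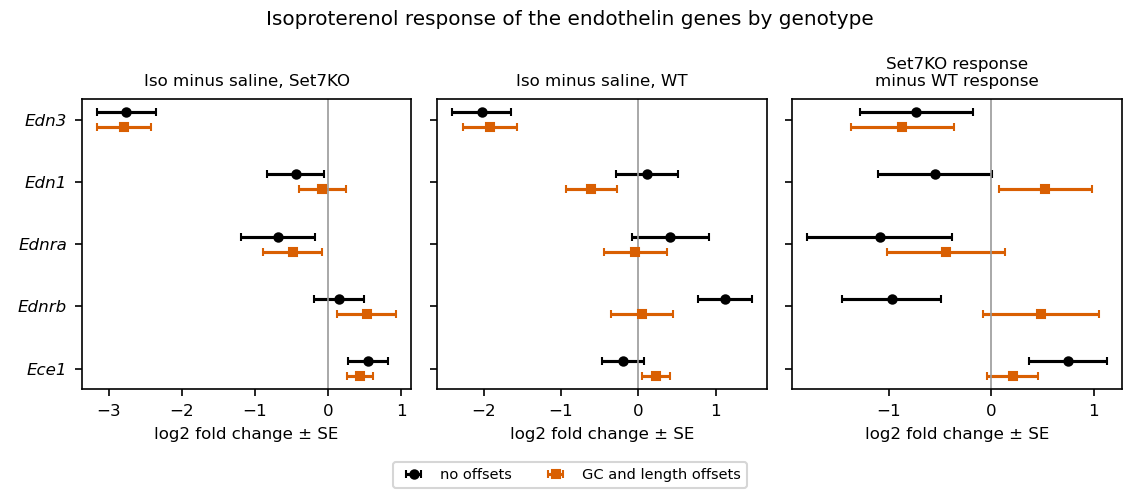
Log2 difference with its standard error for 5 endothelin genes: isoproterenol minus saline in Set7KO hearts (left), the same in WT hearts (middle) and the Set7KO response minus the WT response (right), without offsets (black) and with GC and length offsets (orange). Edn3 is far below 0 in both genotypes under either fit, while Edn1 and Ednrb change sign in the right-hand panel.

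The wider pathway was followed through 5 lists with 81 genes, of which 73 were tested. Over all genes, none of the 73 passed in any contrast by edgeR's quasi-likelihood test with Benjamini-Hochberg adjustment. In the averaged isoproterenol contrast 10 of the 73 had an unadjusted p under 0.05 (9.4% of all genes did), and 10 did with limma-voom. DESeq2 called 2 of the listed genes lower after adjustment, Fos and Ret, beside 1.28% of all genes. In the averaged genotype contrast 4 of the 73 had an unadjusted p under 0.05 (1.56% of all genes did), and limma-voom and DESeq2 called 0. In the interaction 29 of 73 had an unadjusted p under 0.05, beside 30.6% of all genes. DESeq2 called 11 of 75 listed genes with a value there, beside 13.4% of all genes. With GC and length offsets 10 of 73 had an unadjusted p under 0.05, beside 13.8% of all genes. Below, passing refers to edgeR's test in the averaged contrast.

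Genes that process or degrade endothelin precursors (9 of 11 tested) had a median isoproterenol difference of 0.26, beside 0.02 over all genes tested. Furin, a protease that cuts the precursors, read 113 to 188 CPM after isoproterenol and 155 to 280 CPM after saline, a log2 difference of -0.46 ± 0.19. Pcsk5, another proprotein convertase, read 4.43 to 5.67 CPM after isoproterenol and 2.45 to 4.61 CPM after saline, a difference of 0.51 ± 0.22. Their ranges overlapped and neither passed the test.

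Genes of receptor signal transduction (31 of 31 tested) had a median isoproterenol difference of 0.07. Gna13, a G protein alpha subunit, read 22.6 to 34.3 CPM after isoproterenol and 17.2 to 25.1 CPM after saline (log2 difference 0.55 ± 0.16). Rgs5, a regulator that shortens G protein signalling in pericytes, read 92.3 to 228 CPM after isoproterenol and 47.7 to 140 CPM after saline (0.61 ± 0.22). The inositol trisphosphate receptor gene Itpr1 had a difference of 0.36 ± 0.15. None of the 3 passed.

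Transcription factors known to act on the Edn1 promoter (12 of 12 tested) had a median isoproterenol difference of -0.20. Fos, an immediate early factor, read 0.431 to 1.42 CPM after isoproterenol and 1.34 to 12.2 CPM after saline, a log2 difference of -2.42 ± 0.67. It did not pass by edgeR's quasi-likelihood test with Benjamini-Hochberg adjustment (adjusted p = 0.306), while DESeq2 called it (adjusted p = 0.0038). The treatments overlapped only just.

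Neural crest genes of the Edn3 and Ednrb axis (7 of 10 tested) had a median isoproterenol difference of -0.04. Ret, the receptor tyrosine kinase of enteric neuron precursors, read 3.58 to 7.43 CPM after isoproterenol and 5.20 to 19.4 CPM after saline (log2 difference -1.32 ± 0.33). Sox10, a neural crest and Schwann cell factor, read 0.885 to 2.22 CPM after isoproterenol and 1.36 to 3.87 CPM after saline (-0.66 ± 0.40). The ranges overlapped for both. By edgeR's quasi-likelihood test with Benjamini-Hochberg adjustment neither passed (adjusted p = 0.241 for Ret and 0.623 for Sox10), while DESeq2 called Ret (adjusted p = 0.0069).

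Other vasoactive genes (14 of 17 tested) had a median isoproterenol difference of 0.31 and a median genotype difference of -0.01. Ramp1, which pairs with the receptor of calcitonin gene-related peptide, read 14.9 to 45.5 CPM in Set7KO libraries and 14.6 to 24.0 CPM in WT libraries (log2 difference 0.61 ± 0.17). Agt, the angiotensin precursor, read 6.96 to 11.7 CPM in Set7KO libraries and 3.52 to 8.72 CPM in WT libraries (0.88 ± 0.27). Gucy1a1, a subunit of the nitric oxide receptor, read 6.18 to 7.44 CPM in Set7KO libraries and 7.39 to 12.6 CPM in WT libraries (-0.52 ± 0.17). None of the 3 passed. DESeq2 called Ramp1 higher in Set7KO than in WT hearts after isoproterenol (1.56 ± 0.29, adjusted p = 0.00051), beside 1.66% of all genes. It called Rock2 and Zeb2 of the other lists lower there. DESeq2 also called Ramp1 in the interaction (1.85 ± 0.41, adjusted p = 0.00076), beside 13.4% of all genes.

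The genes whose levels most resembled those of Edn3 over the 8 libraries, by Pearson correlation of log2 CPM among 12382 named genes, were Aurkb (r = 0.964), Meig1 (0.958), Scd4 (0.956), Trim7 (0.945) and Ogdhl (0.943). All 5 separated the treatments as Edn3 did, which follows from choosing them by likeness to Edn3. Of all genes tested, 2.01% lay lower in all isoproterenol libraries. Aurkb, a mitotic kinase, read 0.0904 to 0.293 CPM after isoproterenol and 0.957 to 1.76 CPM after saline. A level of 0.0904 CPM amounts to 3 reads in Set7KO isoproterenol replicate 1. Scd4, the stearoyl-CoA desaturase of the heart, read 1.28 to 1.70 CPM after isoproterenol and 7.77 to 11.8 CPM after saline. These correlations describe 8 libraries that share their treatment groups and carry no test.

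Marker lists of cells that could carry the endothelin genes were read beside Edn3. Endothelial markers summed to 1240 to 1649 CPM after isoproterenol and 1034 to 1921 CPM after saline, with none of the 10 at 0. Schwann cell and neural markers summed to 29.0 to 52.2 CPM after isoproterenol and 27.1 to 47.3 CPM after saline. Melanocyte markers summed to 3.84 to 4.24 CPM after isoproterenol and 1.62 to 5.85 CPM after saline, and their defining genes Tyr and Tyrp1 were at 0 in all 8 libraries. Epicardial and mesothelial markers summed to 2.61 to 4.79 CPM after isoproterenol and 2.98 to 5.19 CPM after saline, with 1 to 6 of 8 at 0 after isoproterenol and 2 to 7 of 8 at 0 after saline. Pooled over the genotypes, each of these 4 ranges overlapped between treatments. In WT hearts alone, endothelial markers were lower after isoproterenol (1240 to 1287 CPM, against 1335 to 1921 CPM after saline). So were Schwann cell and neural markers (29.0 to 35.0 CPM, against 37.0 to 47.3 CPM), while the melanocyte sum, most of it Dct, was higher. Mlana of that list read 0.672 CPM in WT saline replicate 1, 0.289 CPM in WT isoproterenol replicate 2 and 0 in the other WT libraries. In Set7KO hearts the endothelial list overlapped. The Schwann cell and neural list was higher there after isoproterenol (47.3 to 52.2 CPM, against 27.1 to 44.0 CPM). Endocardial markers overlapped in Set7KO hearts, at 46.7 to 52.9 CPM after isoproterenol and 34.7 to 60.1 CPM after saline. In WT hearts they were separate, at 29.9 to 36.6 CPM after isoproterenol and 57.0 to 61.3 CPM after saline.

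Blood cell markers were read in the same way. Erythroid markers summed to 2681 to 4351 CPM in Set7KO hearts after isoproterenol and 4232 to 10521 CPM after saline. In WT hearts they summed to 1254 to 1519 CPM after isoproterenol and 3768 to 4261 CPM after saline. Lymphocyte markers summed to 6.33 to 8.07 CPM in Set7KO hearts after isoproterenol and 6.46 to 11.2 CPM after saline. In WT hearts they summed to 1.5 to 2.47 CPM after isoproterenol and 8.96 to 12.2 CPM after saline. Macrophage markers summed to 213 to 346 CPM in Set7KO hearts after isoproterenol and 237 to 331 CPM after saline, and in WT hearts to 152 to 167 CPM after isoproterenol and 305 to 387 CPM after saline. The erythroid, lymphocyte, macrophage, endocardial and endothelial lists were thus lower in both WT isoproterenol libraries than in either WT saline library, as Edn3 was. They overlapped in Set7KO hearts, where Edn3 did not. For the erythroid list that overlap was narrow, at 4351 CPM after isoproterenol against 4232 CPM after saline. The median log2 difference of the erythroid genes was -1.15 in Set7KO hearts and -1.49 in WT hearts. The medians over all genes tested were -0.04 and 0.06. The Schwann cell and neural, smooth muscle and cardiomyocyte lists were also lower in WT hearts, but higher in Set7KO hearts, after isoproterenol. In WT hearts 72.7% of all genes tested were separate in either direction. The part of these cell types in the Edn3 values was not tested.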

How the data were processed

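The deposited table holds whole-number read counts per Ensembl gene for 8 heart libraries, made by the authors; per the labels' protocols the libraries were stranded mRNA libraries. The submitters' processing notes name HISAT2, StringTie, edgeR and GRCm38, with no role or version; the sources used here give neither the strand setting nor the annotation of the counting. The members, pathway lists and marker lists were chosen with earlier results of these data known. Symbols, exons and coding sequences came from GENCODE M21 (55227 of 55487 identifiers named); the amino acids follow the standard code.

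Counts were fitted in R 4.3.3 with edgeR 4.0.16 (quasi-likelihood, TMM scaling, filterByExpr, a mean per group, 17636 genes, residual df 4, biological coefficient of variation 28.4%), and p-values were adjusted by Benjamini-Hochberg over all genes at 0.05. CPM uses TMM-scaled library sizes. Differences are in log2 of the fitted means. Receptor and enzyme ratios used exact permutation tests with 0.5 added to each count. Alternatives were limma-voom (limma 3.58.1), DESeq2 1.42.0, 2 other scalings, 2 other filters, robust fitting, GC and length offsets (splines, 5 df each), an additive model and each library left out. The fit was also run on simulated counts with known fold changes, drawn without a GC trend, and nothing here rests on that run.

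The genes given from each list were up to 3, ranked by unadjusted p in the averaged isoproterenol or genotype contrast, with a mean of 1 CPM or more, and the genes most like Edn3 were the 5 with the highest r at a mean of at least 0.5 CPM; only some of these are printed.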

Additional observations from a re-analysis of the deposited data

Results flagged for a closer look

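The sum of Ece2 and Gm49333 read 2.41 CPM in Set7KO isoproterenol replicate 1, while the other 3 isoproterenol libraries read 3.15 to 3.26 CPM. The gap to the nearest of them took up 0.87 of the whole range, above Dixon's 95% limit for 4 values. Chance alone gives such a gap in about 1 of 20 groups, and 28 groups were examined with this 1 result.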

How the results depend on the processing

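Isoproterenol differences. Edn3 stayed lower under all alternatives run. The numbers of called genes that follow are for the alternatives that keep all libraries. The number of the 6 genes called in the averaged contrast was 1, or 0 with the additive model. In Set7KO hearts it was 0, or 1 with no filter and with DESeq2, which called 0.107% and 0.545% of all genes. In WT hearts it was 0, or 1 with no filter and 2 with DESeq2, which called 5.2% and 17% of all genes. In the genotype contrasts and the interaction it stayed at 0 under the alternatives that keep all libraries. With each library left out, the averaged Edn3 difference ran from -2.52 to -2.27. It ran from -2.97 to -2.55 in Set7KO hearts and from -2.29 to -1.79 in WT hearts.

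Genotype and interaction differences that changed sign were as follows; the cause was not tested. Averaged over treatments, Ece2 was 0.50 with limma-voom and 0.093 when summed with Gm49333. After isoproterenol Ece2 was 0.37 with limma-voom, Edn1 was 0.029 with DESeq2 size factors, 0.018 with DESeq2 and 0.51 with GC and length offsets, and Ednrb was 0.084 with the offsets. After saline Ece2 was 0.63 with limma-voom and 0.34 when summed, and with the offsets Edn1 was -0.017 and Ednrb -0.40. The interaction with the offsets was 0.53 for Edn1 and 0.49 for Ednrb. With each library left out, averaged differences ran from -0.59 to 0.19 for Ednra, -0.13 to 0.28 for Ece1 and -1.46 to 3.5 for Ece2. After isoproterenol they ran from -0.37 to 0.29 for Edn1 and -1.68 to 2.31 for Ece2. After saline they ran from -0.00069 to 0.41 for Edn3, -0.57 to 1.03 for Ednra, -0.12 to 0.48 for Ednrb, -0.72 to 0.064 for Ece1 and -2.72 to 7.15 for Ece2. The interaction ran from -7.30 to 2.52 for Ece2; without a change of sign it ran from -1.70 to -0.04 for Ednra and 0.44 to 1.18 for Ece1, both called without Set7KO saline replicate 1. The log2 ratio difference ran from -0.42 to 0.31 for Ednra to Ednrb and -1.63 to 0.85 for Ece1 to Ece2. With all libraries kept, 368 of 390 values of single genes under an alternative kept both sign and call. Of the genotype and interaction values, 13 of 222 changed sign and 0 changed call. Of the isoproterenol values, 6 of 168 changed call: Edn3 with the additive model and, within each genotype, with DESeq2 and with no filter, and Ednrb in WT hearts with DESeq2. Another 3 changed sign in WT hearts with the offsets, to -0.61 for Edn1, -0.038 for Ednra and 0.22 for Ece1.

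No paired analysis was possible because the labels give no replicate numbers that the groups share. The limits are 2 libraries a group, 9 to 19 Edn3 reads in each isoproterenol library and the exons Ece2 shares with Gm49333. Where a group had 1 library left, it was assumed to vary like the others.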
